A study of Mus musculus with 12 samples.

Results

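Macrophages clear dying cells through receptors and bridging molecules that recognise changes on the apoptotic cell surface. FRA-1 binding was described at 10 genes of this recognition step, namely Mertk, Axl, Tyro3, Gas6, Pros1, Timd4, Stab1, Stab2, Cd36 and Mfge8, in mouse peritoneal macrophages under 3 conditions. The genes were taken as a list of known receptors and bridging molecules, out of 21887 protein-coding genes. Peak values did not enter the rule, but earlier results of these data were known when the list was chosen. A peak was counted at a gene when it lay within 20 kb of the gene body in the RefSeq annotation of mouse build GRCm38 or when the deposited tables assigned it to that gene. In each condition 10 of the 10 genes had a peak in some replicate, beside 78.3% of all genes without stimulation, 92.3% with LPS and 93.1% with apoptotic cells, and 193 peaks were counted at them over 9 replicates. Their windows were longer than those of all genes, with medians of 72986.5 bp and 57162 bp.

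FRA-1, the product of Fosl1, is a member of the AP-1 family of transcription factors and binds DNA as a dimer with a JUN protein. An apoptotic cell exposes phosphatidylserine on its outer membrane, and phagocytes detect this lipid either directly or through a soluble protein that bridges the lipid to a receptor. Mertk, Axl and Tyro3 encode the TAM receptor tyrosine kinases, Gas6 and Pros1 encode their bridging ligands, Mfge8 encodes the bridge to the alpha v integrins, Timd4, Stab1 and Stab2 encode receptors that bind the lipid directly, and Cd36 encodes a scavenger receptor.

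By the sample records, the macrophages were elicited with thioglycollate in male or female mice of 8 weeks on a 129/C57Bl6 background, harvested after 72 h and plated overnight. The design text instead names C57Bl/6 mice and lavage without elicitation. Adherent cells were left unstimulated (n = 3), stimulated with LPS for 1 h (n = 3), or given apoptotic cells for 1 h at a ratio of 1:5 (n = 3). The LPS dose is 1 µg/mL in the sample records and 10 µg/mL in the design text. The records name 3 mice, each present in every condition, whereas the design text counts 9, so whether the conditions share animals is not settled. The score columns carry no mouse label, so replicates are numbered by column order and the conditions were compared unpaired. In all groups the endogenous FRA-1 was precipitated. ChIP-seq gives no transcript level, so the cell type could not be checked against marker genes and the values below are binding and not expression.

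Each table gives a score per replicate, which reads as a Phred-scaled p-value (higher for a smaller p, lowest 50.01), where the authors listed a peak. No read counts were available, so the depth is unknown and a missing peak means only that none was listed. The replicates held 20957 to 28273 peaks without stimulation, 39670 to 62907 with LPS and 31450 to 79384 with apoptotic cells. They also fell into 4 with narrow peaks (unstimulated 3, LPS 1, LPS 3 and apoptotic cells 3, smallest peak 104 to 116 bp) and 5 with wide peaks (smallest peak 158 to 172 bp). This split rests on the smallest peak, and by the median width apoptotic cells 3, at 172 bp, lay between the other narrow-peak replicates (113 to 140 bp) and the wide-peak ones (190 to 223 bp). LPS 3 and apoptotic cells 3 had the most peaks, and counts with equal numbers of peaks per replicate are given beside the results that they change.

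Only the Gas6 promoter, of the 10 promoters, was touched by a peak. Each gene was searched at 1 listed RefSeq start, so promoters at other starts were not examined. Gas6 encodes a vitamin K-dependent ligand of all the TAM receptors. The peak, at chr8:13494754-13494913, was listed in apoptotic cells replicate 2 with a score of 133.78 and in no other replicate. This score stood at the 49.9th percentile of that replicate, with tied scores given their average rank. The 250 bases before the RefSeq start of Gas6 (GRCm38.p6, chr8:13494536-13494785, minus strand, GC content 54.8%) are shown because they are the promoter bases under a listed peak, with the 32 bases inside the peak in capitals:
Gas6 promoter: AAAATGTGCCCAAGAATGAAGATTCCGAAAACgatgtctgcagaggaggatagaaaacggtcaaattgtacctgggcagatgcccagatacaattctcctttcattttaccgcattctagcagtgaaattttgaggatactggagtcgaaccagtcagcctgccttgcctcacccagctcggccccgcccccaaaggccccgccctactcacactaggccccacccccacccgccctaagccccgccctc
The sequence holds neither TGACTCA, the site preferred by FOS-JUN dimers, nor TGACGTCA, the cyclic AMP response site, on either strand. Of the other 9 promoters, none held either word. Among the 21263 promoters in the RefSeq table, TGACTCA occurred in 4.06% and TGACGTCA in 1.92%. Both words are thus rare, and their absence from 10 promoters does not set the list apart. The nearest peak to another promoter of the list lay 252 bp from that of Cd36 and was listed in unstimulated replicate 1 only. It was followed by peaks at 627 bp from the Axl promoter and 1441 bp from the Tyro3 promoter, and no peak of Stab2 came closer than 17698 bp.

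The 10 genes together held 13, 15 and 10 peaks in the unstimulated replicates, 27, 15 and 41 with LPS, and 16, 15 and 41 with apoptotic cells. The means were 12.7 ± 2.52 without stimulation, 27.7 ± 13.0 with LPS and 24 ± 14.7 with apoptotic cells (SD, n = 3 each), and each stimulated group met the unstimulated one at 15 peaks. When only the 20957 highest scoring peaks of each replicate were kept, the counts became 10, 15 and 9, then 11, 9 and 13, then 6, 11 and 9, and the means were 11.3, 11 and 8.67. Per 100 kb of window, the 10 genes held 0.986 to 4.04 peaks in the single replicates and all genes held 0.830 to 3.30. The ratio of both densities was 1.29 ± 0.467 without stimulation, 1.24 ± 0.253 with LPS and 1.12 ± 0.135 with apoptotic cells (SD, n = 3 each). It lay above 1 in 6 of the 9 replicates and below 1 in the other 3. Across replicates the pooled density of the 10 genes thus stood on both sides of the genome-wide level.

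**Figure D1:**
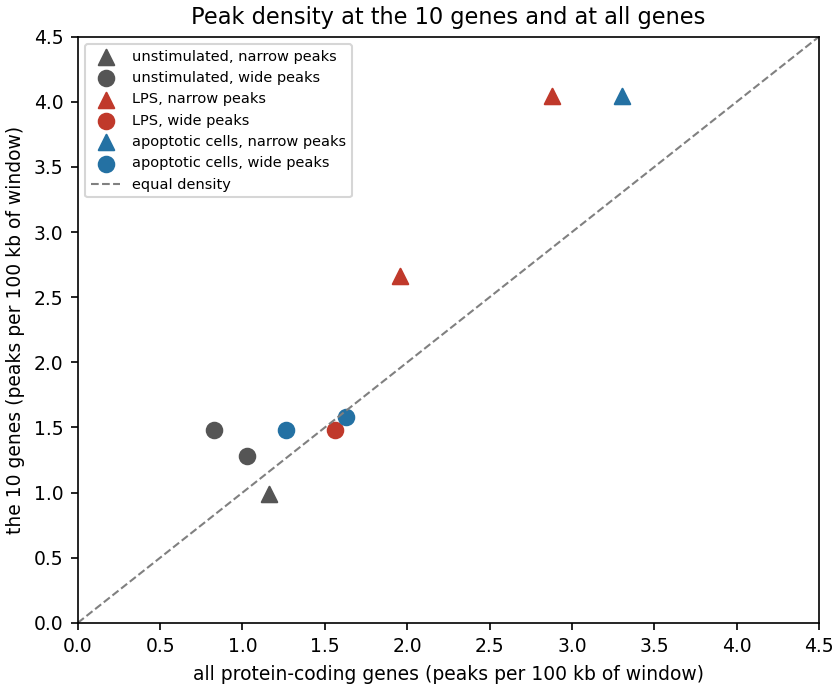
Peaks per 100 kb of window at the 10 genes (vertical axis) against all protein-coding genes (horizontal axis), 1 point per replicate, coloured by condition, with the marker showing narrow or wide peaks and the dashed line equal densities. 6 of the 9 points lie above the line, and LPS replicate 3 and apoptotic cells replicate 3 lie farthest to the upper right.

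With LPS, Timd4 was the only one of the 10 genes whose peak counts did not overlap those of unstimulated macrophages, beside 10.1% of all genes (9.87% higher and 0.192% lower with LPS). With apoptotic cells, 0 of the 10 genes were separated from the unstimulated counts, beside 6.73% of all genes (6.57% higher and 0.164% lower). Between LPS and apoptotic cells 0 of 10 were separated, beside 3.27% of all genes (1.99% higher and 1.28% lower with LPS). The smallest two-sided p that 3 replicates against 3 allow is 0.1, so no single gene could pass 0.05. The mean count was higher with LPS than without stimulation at 10 of the 10 genes, beside 74.1% of all genes, but with equal numbers of peaks per replicate it was higher at 4, lower at Mertk, Gas6, Cd36 and Mfge8 (4) and equal at 2. With apoptotic cells it was higher at 7, lower at Cd36 and equal at Axl and Stab1, whereas 73.4% of all genes were higher and 13.0% lower, and with equal numbers of peaks it was higher at 2, lower at 6 and equal at 2. Between the stimuli, LPS was higher at 8 genes and lower at Pros1 and Stab2, beside 44.9% higher and 40.3% lower at all genes, and with equal numbers of peaks it was higher at 5, lower at 3 and equal at 2. The median difference per 100 kb was 1.41 at the 10 genes and 1.04 at all genes for LPS against unstimulated, 1.01 and 0.959 for apoptotic cells against unstimulated, and 0.580 and 0 for LPS against apoptotic cells. Leaving out unstimulated replicate 1 separated Axl, Pros1 and Timd4 with LPS (3 of 10, all genes 14.9%) and Pros1 and Stab2 with apoptotic cells (2 of 10, all genes 10.6%). The stimulated groups were compared with the same unstimulated replicates, so these comparisons are not independent.

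**Figure D2:**
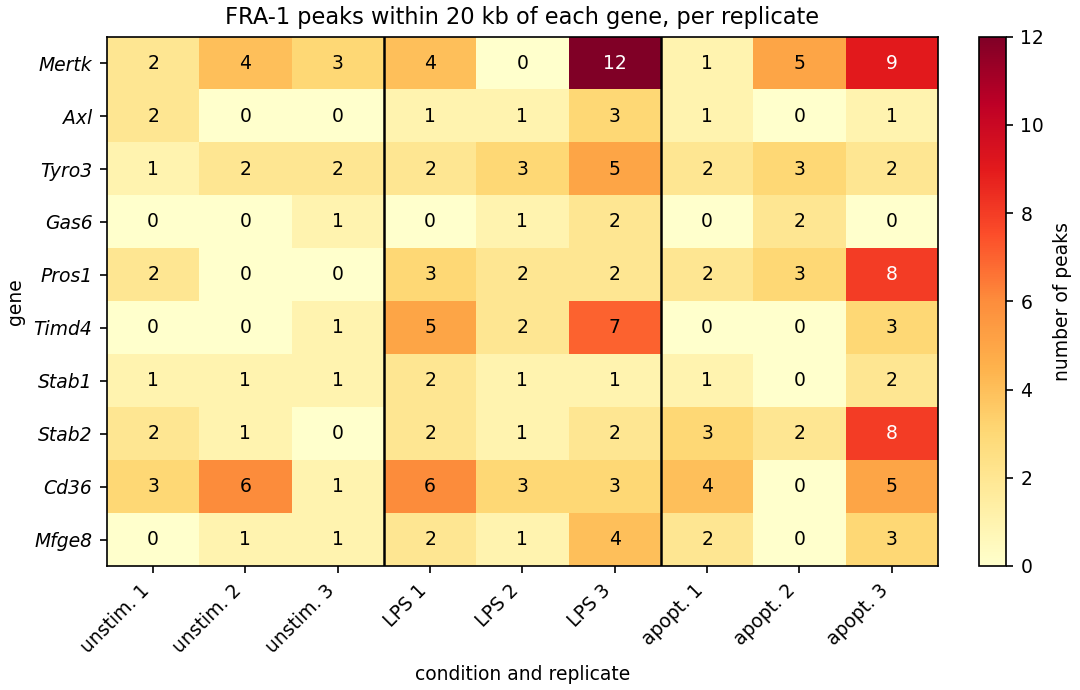
Number of FRA-1 peaks within 20 kb of each gene (rows) in each replicate (columns), given as digits and colour. Timd4 has 0, 0 and 1 peaks without stimulation and 5, 2 and 7 with LPS, and Mertk has 12 peaks in LPS replicate 3 and 0 in LPS replicate 2.

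Mertk, the TAM receptor that macrophages use to engulf apoptotic cells (chr2:128698915-128803162, plus strand), held 40 peaks, the most of the list. It had 2, 4 and 3 peaks in the unstimulated replicates, 4, 0 and 12 with LPS and 1, 5 and 9 with apoptotic cells. The LPS replicates thus spanned both the lowest and the highest count, and without LPS replicate 3 the LPS mean was 1 peak below the unstimulated one. The means of 3 ± 1, 5.33 ± 6.11 and 5 ± 4 were not separated (SD, n = 3 each; exact permutation test, LPS against unstimulated p = 0.8, apoptotic cells against unstimulated p = 0.6). With equal numbers of peaks per replicate the counts of Mertk were 2, 4 and 2 without stimulation, 2, 0 and 1 with LPS and 0, 3 and 2 with apoptotic cells. A region is called recurring below when at least 2 replicates of 1 condition had a peak there, as at 3 of the 28 regions of Mertk, of which 22 were listed in 1 replicate. The region 109.4 kb downstream of the start, 5062 bp past the 3′ end, was listed with LPS at 163.1 and 221.05 and with apoptotic cells at 159.52 and 111.75, and in no unstimulated replicate. A region 52.3 kb into the gene body was listed in unstimulated replicate 3 at 138.42, in LPS replicates 1 and 3 at 124.13 and 120.9 and in apoptotic cells replicate 2 at 85.08. Another recurring region lay inside the neighbouring gene Tmem87b, 19183 bp past the end of Mertk, with scores of 167.63 and 210.33 with LPS and 120.65 with apoptotic cells. The highest score at Mertk, 297.32 in LPS replicate 3, was also inside a neighbour, Anapc1, 15.1 kb upstream of the start.

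Axl, a TAM receptor bound by Gas6 (chr7:25756500-25788924, minus strand), held 9 peaks. The counts were 2, 0 and 0 without stimulation, 1, 1 and 3 with LPS, and 1, 0 and 1 with apoptotic cells, and they overlapped in every comparison (exact permutation test, LPS against unstimulated p = 0.5). Its only region shared by replicates of a condition was listed at 178.77 and 385.88 in LPS replicates 1 and 3 and lay 19423 bp past its end, inside Hnrnpul1. Peaks assigned to Axl in the deposited tables lay 2453 bp upstream of its start in unstimulated replicate 1, at 99.78, and 1002 bp upstream in apoptotic cells replicate 3, at 72.59.

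Tyro3, the third TAM receptor (chr2:119797740-119818104, plus strand), held the only region of the list with a peak in every replicate. It had 1, 2 and 2 peaks without stimulation, 2, 3 and 5 with LPS and 2, 3 and 2 with apoptotic cells (exact permutation test, LPS against unstimulated p = 0.3). At 4.05 peaks per 100 kb and replicate (SD 1.87, n = 9) it had the highest density of the 10 genes, followed by Mertk at 3.08 (SD 2.66) and Mfge8 at 2.81 (SD 2.41), and these neighbours in the order differed by less than their spread. Of the 22 peaks, 18 lay downstream of the gene, 4 in the gene body and 0 upstream.

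The region at chr2:119824866-119825063, 6762 bp past the 3′ end of Tyro3 and in no RefSeq gene, was the one listed in all 9 replicates, a pattern of 0.456% of the 300195 regions of the whole series. Its scores were 237.46, 142.03 and 300.96 without stimulation, 421.81, 118.02 and 384.39 with LPS, and 281.96, 247.08 and 264.56 with apoptotic cells. LPS replicates 1 and 3 gave the highest values and LPS replicate 2 the lowest, so the conditions overlapped. Within their own replicates these peaks stood between the 40.2nd and the 98.4th percentile of the scores. The next region, 8163 bp past the end, was listed at 178.77 and 344.84 with LPS, at 73.07 and 75.71 with apoptotic cells and in no unstimulated replicate.

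Gas6 (chr8:13465374-13494535, minus strand) held 6 peaks in 6 regions, each listed in 1 replicate. The counts were 0, 0 and 1 without stimulation, 0, 1 and 2 with LPS and 0, 2 and 0 with apoptotic cells. Every condition contained a replicate with no listed peak, and the gene had the lowest density of the list, 0.964 peaks per 100 kb and replicate (SD 1.25, n = 9), before Stab2 at 1.13 (SD 1.11). Besides the peak at the promoter printed above, the highest score was 196.7 in unstimulated replicate 3, 18.0 kb upstream of the start.

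Pros1, which encodes protein S, the ligand of Mertk and Tyro3 and also an anticoagulant (chr16:62854307-62929346, plus strand), held 22 peaks. The counts were 2, 0 and 0 without stimulation, 3, 2 and 2 with LPS and 2, 3 and 8 with apoptotic cells. The stimulated replicates all reached the highest unstimulated count or passed it, but tied with it (exact permutation test, apoptotic cells against unstimulated p = 0.2, LPS against unstimulated p = 0.3). With equal numbers of peaks the counts of Pros1 were 1, 0 and 0, then 1, 2 and 1, then 1, 3 and 2. A region in the gene body 57.6 kb from the start was listed with all apoptotic cell replicates, at 255.22, 133.78 and 128.9, and with LPS replicates 1 and 3, at 222.56 and 406.68. It was listed in no unstimulated replicate and not in LPS replicate 2. The other recurring region of Pros1, 66.0 kb from the start in the gene body, was listed in LPS replicates 1 and 3 at 87.22 and 203.59. The first region was the only region of the list with a peak in all 3 apoptotic cell replicates and 0 unstimulated ones, a pattern held by 0.108% of all regions, and 0 regions of the list had the like pattern with all 3 LPS replicates (all regions 0.209%).

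Mfge8, which encodes the secreted bridge to the alpha v integrins (chr7:79133768-79149060, minus strand), held 14 peaks, of which 9 lay upstream, 5 downstream and 0 in the gene body. The counts were 0, 1 and 1 without stimulation, 2, 1 and 4 with LPS and 2, 0 and 3 with apoptotic cells (exact permutation test, LPS against unstimulated p = 0.3). The region 8322 bp upstream of the start was listed in 6 replicates, the most after the region beyond Tyro3. Its scores were 196.68 and 150.97 in unstimulated replicates 2 and 3, 136.64, 126.89 and 184.31 with LPS, and 111.27 in apoptotic cells replicate 3. The score was highest without stimulation, and this region did not separate the conditions. The highest score at Mfge8, 226.93 in LPS replicate 3, lay nearby at 7874 bp upstream.

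Timd4, which encodes the phosphatidylserine receptor TIM-4 of resident macrophages (chr11:46810786-46844333, plus strand), held 18 peaks. It had 0, 0 and 1 peaks in the unstimulated replicates, 5, 2 and 7 with LPS and 0, 0 and 3 with apoptotic cells. Every LPS replicate exceeded every unstimulated replicate, with means of 4.67 ± 2.52 and 0.333 ± 0.577 (SD, n = 3 each; exact permutation test, p = 0.1, the smallest possible). The apoptotic cell counts, with a mean of 1 ± 1.73, overlapped both (exact permutation test, LPS against apoptotic cells p = 0.2, apoptotic cells against unstimulated p = 1). Within the wide-peak replicates the counts were 0 and 0 without stimulation, 2 with LPS and 0 and 0 with apoptotic cells, and within the narrow-peak replicates they were 1, then 5 and 7, then 3. With the 20957 highest scoring peaks of each replicate they were 0, 0 and 1, then 1, 1 and 4, then 0, 0 and 1, so the conditions overlapped. The separation was also lost with the gene body alone, within 5 kb, with scores of at least 100 and with scores above each replicate's median. The peaks behind it lay mostly outside the gene, with 8 upstream, 7 downstream and 3 in the gene body. 4 of the 18 peaks are also counted at the adjoining gene Havcr1.

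Timd4 and Mertk had the most regions shared within a condition, 3 each. At Timd4 they lay 15.1 kb upstream, 7.0 kb upstream inside the long non-coding RNA gene Gm39817, and 51.2 kb downstream of the start. All of them were listed in LPS replicates 1 and 3 and apoptotic cells replicate 3, and in no other replicate. In LPS replicate 3 the scores were 248.94, 264.75 and 208.17, in LPS replicate 1 they were 70.36, 136.4 and 178.77, and in apoptotic cells replicate 3 they were 83.49, 146.67 and 94.15. LPS replicate 3 thus gave the highest score at each region.

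Stab1, which encodes stabilin-1 (chr14:31139017-31168651, minus strand), held 10 peaks with 1, 1 and 1 without stimulation, 2, 1 and 1 with LPS and 1, 0 and 2 with apoptotic cells. It varied least of the list per 100 kb (SD 0.863 over the 9 replicates), and its only recurring region lay inside Smim4, 15995 bp past its end, with scores of 192.84 without stimulation and 174.92 and 297.32 with LPS. Stab2, which encodes stabilin-2, best known from liver sinusoidal endothelium (chr10:86841194-87008038, minus strand), held 21 peaks over the longest window of the list. Its counts were 2, 1 and 0 without stimulation, 2, 1 and 2 with LPS and 3, 2 and 8 with apoptotic cells (exact permutation test, apoptotic cells against unstimulated p = 0.2). The apoptotic cell count was high in replicate 3 alone, and with equal numbers of peaks the counts of Stab2 were 2, 1 and 0, then 2, 1 and 1, then 1, 2 and 1. The only region shared within a condition, 108.2 kb from the start in the gene body, was listed in LPS replicates 1 and 3 at 222.56 and 265.27, and a region 76.1 kb from the start was shared between unstimulated replicate 1, at 162.3, and apoptotic cells replicate 3, at 93.86.

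Cd36, which encodes a receptor for oxidised lipoproteins that also takes part in apoptotic cell uptake (chr5:17781690-17888959, minus strand), held 31 peaks. It was the only gene of the list with a lower mean count with apoptotic cells than without stimulation, a difference that turned to 1 peak more without unstimulated replicate 2 and to 1.17 more without apoptotic cells replicate 2. The counts were 3, 6 and 1 without stimulation, 6, 3 and 3 with LPS and 4, 0 and 5 with apoptotic cells (exact permutation test, p = 1 for both stimuli against unstimulated). The peaks of Cd36 rarely met, since they formed 30 regions of which 29 were listed in 1 replicate and 0 in at least 2 replicates of a condition. Its highest score, 269.1, was in unstimulated replicate 1, in the gene body 12.1 kb downstream of the listed start.

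**Figure D3:**
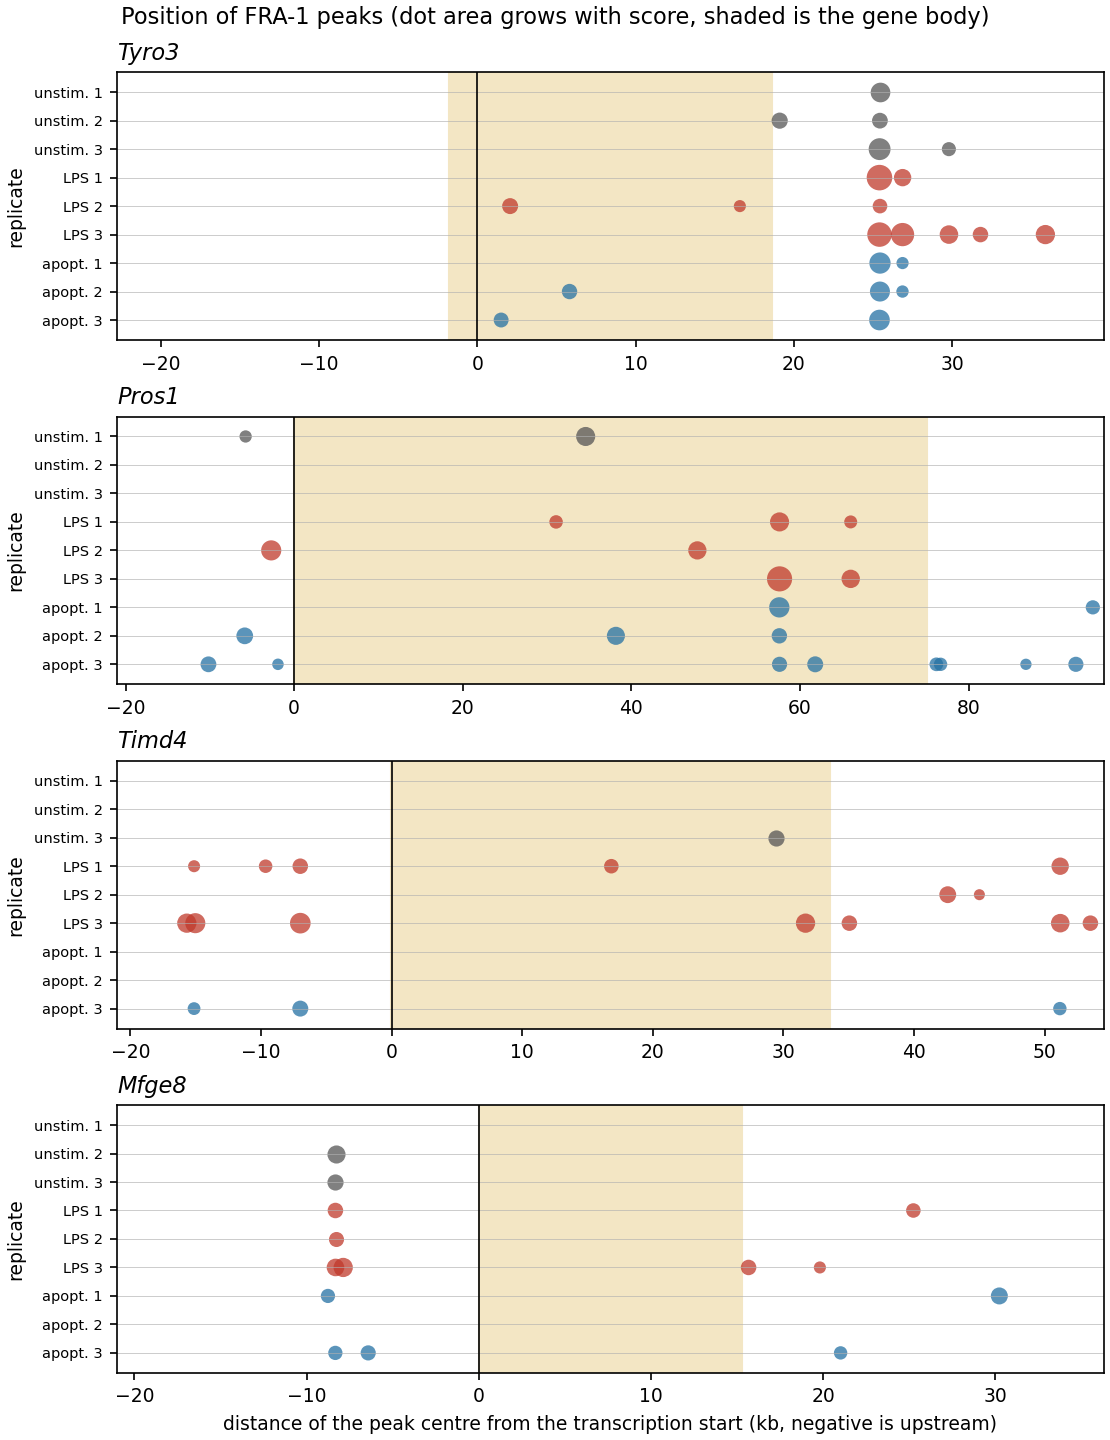
Distance of each peak centre from the transcription start (horizontal axis, kb, negative is upstream) for each of the 9 replicates (vertical axis). Panels are given for Tyro3, Pros1, Timd4 and Mfge8 only, with the gene body shaded and dot area growing with the score. The column of 9 dots beyond the 3′ end of Tyro3 and the 6 dots upstream of Mfge8 recur.

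Over all members the peaks lay in the gene body in 91 cases, downstream in 57 and upstream in 45. The gene body took 47.2% of the peaks and 60.5% of the window length, whereas at all genes it took 53.1% of the peaks and 54.6% of the length. The median member peak scored at the 80.7th percentile of its replicate in unstimulated replicate 1 and between the 40.1st and the 55.8th in the other 8 replicates.

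The 193 peaks merged into 146 regions. Of these, 125 (85.6%) were listed in 1 replicate, beside 89.7% of the regions of the whole series, and 21 (14.4%) in at least 2 replicates, beside 10.3%. In unstimulated macrophages 2 of 35 regions were shared by at least 2 replicates (5.71%, all regions 6.06%). With LPS 14 of 67 were shared (20.9%, all regions 18.0%) and with apoptotic cells 4 of 66 (6.06%, all regions 5.94%). All shares of the list were close to those of the series, and LPS had the highest in both. Regions listed in all 3 replicates numbered 1 without stimulation, 2 with LPS and 2 with apoptotic cells, a pattern held by 2.49%, 3.58% and 3.02% of all regions of these conditions. Of the 14 regions shared with LPS, 12 were listed in replicates 1 and 3, both with narrow peaks, and not in replicate 2, and the other 2 in all 3 replicates. Without LPS replicate 1, or without LPS replicate 3, 2 regions were shared. With equal numbers of peaks per replicate 2 regions were shared without stimulation, 6 with LPS and 2 with apoptotic cells.

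Of the 146 regions, 10 had peaks in 2 or more LPS and 0 unstimulated replicates (6.85%, all regions 4.20%). They lay at 6 genes, and all 10 were listed in LPS replicates 1 and 3 and not in replicate 2. 7 of them also had a peak with apoptotic cells. Peaks in 2 or more apoptotic cell and 0 unstimulated replicates occurred at 3 regions (2.05%, all regions 0.781%), the ones described at Pros1, Mertk and Tyro3. 0 regions had peaks in 2 or more unstimulated replicates and 0 with LPS (all regions 0.0863%), or 0 with apoptotic cells (all regions 0.139%). Peaks in 2 or more LPS and 0 apoptotic cell replicates occurred at 4 regions (2.74%, all regions 3.37%), and the reverse pattern was held by 0 regions (all regions 0.278%). Only 4 regions (2.74%, all regions 2.71%) were listed in all 3 conditions.

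**Figure D4:**
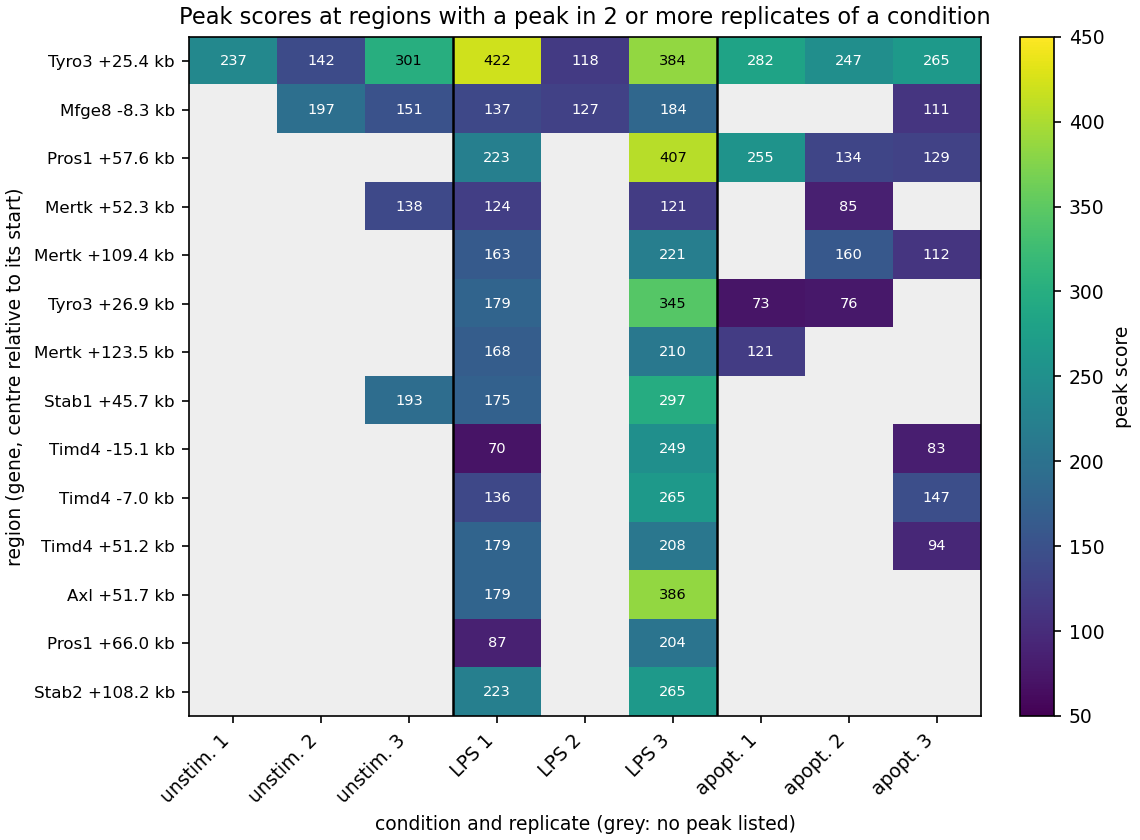
Peak scores (colour) at the 14 regions shared by 2 or more replicates of a condition (rows, named by gene and distance from its start) in each replicate (columns), with grey where no peak was listed. LPS replicates 1 and 3 are filled in every row and LPS replicate 2 in 2 rows, and the region beyond Tyro3 is filled in all 9 columns.

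Among 28 further genes of apoptotic cell recognition and engulfment, including the alpha v integrin, scavenger receptors and the ELMO-DOCK-RAC1 module that drives actin at the phagocytic cup, 5 had higher peak counts in every LPS replicate than in every unstimulated one and 0 had lower counts (17.9%, all genes 10.1%). With apoptotic cells 5 were likewise separated upwards (17.9%, all genes 6.73%), and between the stimuli 1 was separated (3.57%, all genes 3.27%). With equal numbers of peaks per replicate these counts became 2 with LPS, 1 with apoptotic cells and 2 between the stimuli, beside 2.85%, 2.34% and 2.81% of all genes. Before that cut, the separated genes had windows from 59159 bp at Cd300lf to 542961 bp at Dock1, beside a median of 57162 bp at all genes. Whether window length bears on these shares was not tested. Dock1, which encodes the RAC1 exchange factor, had 2, 4 and 8 peaks without stimulation and 10, 11 and 25 with apoptotic cells. Itgav, which encodes the alpha v chain that receives Mfge8, had 1, 1 and 0 without stimulation, 5, 2 and 6 with LPS and 8, 2 and 3 with apoptotic cells. Itgav was thus separated with both stimuli before the cut to equal numbers of peaks. The counts given for single further genes are all from before that cut. Which of these genes stayed separated after it is not reported here. Scarb1, a scavenger receptor that binds phosphatidylserine, had 2, 2 and 0 without stimulation and 3, 4 and 5 with LPS. Elmo1, the partner of Dock1, overlapped with 6, 6 and 6 without stimulation, 11, 6 and 11 with LPS and 10, 6 and 23 with apoptotic cells. Lrp1, which encodes an endocytic receptor for calreticulin on dying cells, also overlapped with 2, 2 and 5, then 4, 4 and 7, then 4, 4 and 2. The remaining separated genes were named after their values were seen. They were Rac1, Cd300lf and Havcr1 with LPS, Rac1, Itgb3 and Havcr1 with apoptotic cells, and Msr1 between the stimuli. Havcr1 had 0, 0 and 0 peaks without stimulation, 2, 1 and 3 with LPS and 1, 1 and 3 with apoptotic cells. Of these, 1 in LPS replicate 1, 2 in LPS replicate 3 and 1 in apoptotic cells replicate 3 were also counted at Timd4. The separations of Timd4 and Havcr1 with LPS are thus not independent. Rac1, the GTPase of the module, had 0, 1 and 0 peaks without stimulation, 5, 5 and 3 with LPS and 3, 3 and 3 with apoptotic cells. Msr1, a scavenger receptor, had 0, 1 and 1 with LPS and 2, 3 and 4 with apoptotic cells.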

How the data were processed

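FRA-1 ChIP-seq was performed in peritoneal macrophages of 3 conditions with 3 replicates each. The 3 pooled input samples were not used. Per the labels, the submitters' processing notes name BWA 0.7.14, bedtools and mm10 (GRCm38). The peak caller and its threshold are not given in the sources used here, since the methods of the paper describe a separate re-analysis of the reads. The deposited tables list segments with a score for each replicate (-1 for no peak). The deposited score was not normalized between replicates, and peaks were called by the authors in each replicate. Adjoining segments of equal score were joined into peaks, and overlapping peaks of different replicates were merged into regions (pandas 2.3.3 and numpy 2.4.6 under Python 3.11.15). Only assembled chromosomes were used. Peaks were counted within 20 kb of RefSeq gene bodies, windows of neighbouring genes may share peaks, and distances run from the listed start to the peak centre. Coordinates and promoter sequence are from RefSeq, whose tables held all 10 genes. No genome was used here, so exons and introns were not told apart.

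Conditions were compared per gene by whether their 3 replicates overlapped and by a two-sided exact permutation test (scipy 1.17.1), over all 21887 genes. The steps were tested on simulated data. Per the sample records, each replicate of a condition came from a different mouse. The members and lists were chosen with earlier results of these data known. All 10 genes were described. Regions were named if shared by at least 2 replicates of a condition, at a promoter, or highest scoring for their gene. Of the further 28 genes, the rule named at most the 5 with the most peaks, among those separated between conditions or with a region in all 3 replicates of a condition, and 5 more separated genes were named after their values were seen.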

Additional observations from a re-analysis of the deposited data

How the results depend on the processing

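The tables give neither reads nor depth, so a peak that is not listed may be a peak below the threshold. No paired analysis was possible because no mouse is named for the columns of scores. Counts below are given for LPS against unstimulated, apoptotic cells against unstimulated and LPS against apoptotic cells, in this order, where several are listed. Differences in mean peak count that were not separated changed sign under at least 1 setting at 6, 6 and 7 of the 10 genes. Axl and Stab1 could not be counted with apoptotic cells, since their main difference was 0. Timd4 with LPS was separated and so lies outside this count. Timd4 was separated with LPS whichever replicate was left out. With a window of 5 kb Pros1 took its place (1 of 10, all genes 6.52%) and the mean peak counts at the 10 genes were 7.33 without stimulation, 14.7 with LPS and 14.3 with apoptotic cells, with 0, 4 and 1 regions shared in unstimulated, LPS and apoptotic cell macrophages and 3 of the 28 further genes separated with apoptotic cells. With gene bodies alone 0 of the 10 genes were separated with LPS and 2 further genes were, mean peak counts were 6.67 without stimulation, 11.7 with LPS and 12 with apoptotic cells, so that the order of the stimuli turned, and 0, 4 and 1 regions were shared. With 50 kb Timd4 and Stab2 (2 of 10, all genes 15.7%) were separated with LPS and Stab2 (1 of 10, all genes 10.1%) with apoptotic cells, 3 further genes were separated between the stimuli, and the unstimulated mean was 17. With the deposited gene assignments alone, which name 4 of the 10 genes at 6 peaks, 0 of the 10 genes were separated with LPS, 0, 0 and 0 further genes were, and mean counts were 0.333, 0.667 and 1. With scores of at least 100, 0 genes were separated with LPS and 2 (Pros1, Stab2, all genes 4.18%) with apoptotic cells, 3, 3 and 0 further genes were, and the unstimulated mean was 9.67. With scores above each replicate's median, 0 of the 10 genes were separated with LPS, 2 and 1 further genes were with LPS and with apoptotic cells, and means were 6 without stimulation, 14.3 with LPS and 11 with apoptotic cells. With equal numbers of peaks 0 of the 10 were separated with LPS and 2, 1 and 2 further genes were, mean counts were 11 with LPS and 8.67 with apoptotic cells, and 6 and 2 regions were shared there. Leaving out each replicate gave 1 to 3, 0 to 2 and 0 to 1 separated genes of the 10, and 5 to 11, 5 to 10 and 1 to 3 further genes, while the share of all genes rose to 12.8% to 26.2%, 9.28% to 19.6% and 6.47% to 10.5%. Of the 10 genes, Tyro3 joined Timd4 with LPS without LPS replicate 1 (2 of 10, all genes 16.8%) and Mfge8 did without LPS replicate 2 (2 of 10, all genes 26.2%). With apoptotic cells Mertk and Pros1 were separated without apoptotic cells replicate 1 (all genes 14.2%), and Stab2 and Mfge8 without replicate 2 (all genes 19.6%). Between the stimuli Timd4 was separated without LPS replicate 2 (all genes 10.5%) or apoptotic cells replicate 3 (10.4%), and Stab2 without apoptotic cells replicate 2 (8.73%). Mean counts then ranged from 11.5 to 14 without stimulation, 21 to 34 with LPS and 15.5 to 28.5 with apoptotic cells, and shared regions from 1 to 2, 2 to 14 and 2 to 3. Without both LPS replicate 3 and apoptotic cells replicate 3, an alternative chosen after seeing the data, Timd4 (1 of 10, all genes 15.6%) was separated between the stimuli, 3 further genes were, and 2 regions were shared with LPS. A required overlap of 50% between peaks changed none of these counts by over 1.5 times.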
